A study of Mus musculus with 3 samples.

Results

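The 10 genes described here are those of the MHC class II antigen presentation route and its 2 best known costimulatory ligands, and they were chosen by name from the 24346 genes of the deposited FPKM table. They comprise the class II chains *H2-Aa*, *H2-Ab1* and *H2-Eb1*, the peptide loading factors *H2-DMa*, *H2-DMb1* and *H2-Oa*, the invariant chain *Cd74*, the transactivator *Ciita*, and the ligands *Cd80* and *Cd86*. All 10 had a row in the table. Each was set against *Ptprc*, the gene for the pan-leukocyte surface protein CD45, within each library.

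The data are bulk RNA-seq of endothelial cells (ECs) from adult mouse lung, in 3 libraries named S38, S44 and S52 that form 1 group. The cells came from wild-type male C57BL/6J mice aged 6 to 8 weeks that received an antibody to VE-cadherin by retro-orbital injection shortly before death. Cells bearing the EC protein CD31 and lacking CD45 and Podoplanin were then sorted. No second condition was analysed here, so no difference between conditions was tested and no p-value is given. Because the labels do not say whether the libraries came from separate mice, the spread between them may be technical.

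MHC class II molecules are heterodimers of an alpha and a beta chain that present peptides from the endosomal route to CD4+ T cells. The invariant chain Cd74 fills the groove of new molecules and brings them to endosomes, where it is cut down to the peptide CLIP. H2-DM then exchanges CLIP for antigenic peptide, and H2-O restrains H2-DM. Ciita is the master coactivator of all of these genes and is recruited by an assembly of RFX, CREB and NF-Y factors on the X and Y boxes of their promoters. Naive T cells also need a second signal, classically from CD80 or CD86 on the presenting cell binding CD28. Endothelium is known as a tissue in which class II can be induced by interferon gamma.

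Matches to a pattern of the X box and of the Y box are shown for 2 abundant chains and for *H2-Oa*, the lowest class II member. Of these genes, *H2-Eb1* alone had a match to the X box pattern. Each line below covers the bases from -110 to -39 relative to the RefSeq start site on GRCm38.p6, written 5′ to 3′ on the strand of the gene. Capitals mark a match to the Y box core TGATTGG or to the X box pattern, CNAGNNA followed directly by CNNATG, both searched on both strands. *H2-Aa* was read from chr17:34287862-34287933 on the minus strand, *H2-Eb1* from chr17:34305757-34305828 on the plus strand and *H2-Oa* from chr17:34092269-34092340 on the plus strand.
H2-Aa: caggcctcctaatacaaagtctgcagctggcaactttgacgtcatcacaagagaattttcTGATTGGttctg
H2-Eb1: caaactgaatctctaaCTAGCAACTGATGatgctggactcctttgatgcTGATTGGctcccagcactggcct
H2-Oa: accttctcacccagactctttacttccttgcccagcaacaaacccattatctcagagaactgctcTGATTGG

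The Y box core began at -50 in *H2-Aa*, at -61 in *H2-Eb1*, at -63 in *H2-DMb1* and at -45 in *H2-Oa*. It was present in 7 of the 8 class II genes with a RefSeq promoter window, against 7.82% of all 32851 windows of 300 bases. The X box pattern was found in 4 of the 8, against 0.715% of all windows, and among the members it occurred in *H2-Eb1* at -94 and in *H2-DMb1* at -97, where it read CTAGTAACTGATG. *H2-DMa* had neither pattern in its windows, and *H2-Aa* and *H2-Oa* had no match to the X box pattern. A missing match says nothing of the regulation of these genes. *H2-Oa*, the lowest class II member, and *H2-Aa*, one of the highest, thus carried the same 7 letters at similar distances. In *H2-Eb2*, which is no member and was lower still with a mean of 0.375 FPKM against 0.774 FPKM for *H2-Oa*, the Y box core began at -102. Of the members, 6 had a promoter window, and *H2-Ab1*, *Cd74*, *Ciita* and *Cd86* had none.

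On GRCm38, 6 members lie within 224 kb of the MHC on chromosome 17, from 34092340 to 34316674, in the order *H2-Oa*, *H2-DMa*, *H2-DMb1*, *H2-Ab1*, *H2-Aa* and *H2-Eb1*. *Ciita* lies on chromosome 16 from 10480059 to 10528418, as do *Cd86* from 36603869 to 36666081 and *Cd80* from 38455561 to 38496335. *Cd74* lies on chromosome 18 from 60803848 to 60812652.

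The libraries differed from each other in the RNA of other cell types. *Ptprc* stood at 4.30, 2.06 and 0.434 FPKM. FPKM counts fragments relative to transcript length and to the fragments of the library, so levels can be compared between genes. Values given 3 at a time stand in the order S38, S44 and S52. Summed markers of alveolar type 2 cells, the surfactant-making epithelium, were also lowest in S52, at 3882, 3258 and 781 FPKM. The 10 endothelial markers summed to 6001, 6577 and 5546 FPKM, and in S52 0 of them were under 1/2 of their value in both other libraries. Lower sums of a marker list cannot be told apart from less RNA per cell. Depth, estimated from the values, was 37650000, 38600000 and 34200000 fragments.

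The class II chains were among the abundant mRNAs of these libraries. *H2-Aa*, the alpha chain of I-A, was at 441, 598 and 413 FPKM (484 ± 99.3, SD, n = 3). *H2-Ab1*, its beta partner, was at 343, 597 and 333 FPKM (424 ± 149). *H2-Eb1*, the beta chain of I-E, was at 181, 256 and 212 FPKM (216.5 ± 37.6). S44 was the highest library for each of the 3 chains, while S52 was within 0.938 to 1.17 times S38. The alpha partner of *H2-Eb1* is annotated as a pseudogene, and its row, *H2-Ea-ps*, was listed at 0 in 3 of 3 libraries. The beta to alpha ratio of I-A, *H2-Ab1* over *H2-Aa*, was 0.778, 0.999 and 0.806.

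*Cd74* was the most abundant member, at 894, 999 and 896 FPKM. Its coefficient of variation over the libraries was 6.43%, against a median of 17.6% over the 11770 genes averaging 1 FPKM or more and of 14.9% over the 887 genes at 100 FPKM or above. It depended on the scale, at 12.6% with columns rescaled to the same sum and 0.742% with the same endothelial median, where the medians at 100 FPKM or above were 20.6% and 15.7%. With a mean of 930 ± 59.8 FPKM it ranked 95th of all genes. It stood close to *Pecam1*, the gene for CD31, of which it made 0.795, 0.822 and 0.770 times the level. Set against the 3 chains together, *Cd74* was 0.926 times their sum in S38, 0.689 times in S44 and 0.935 times in S52.

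The H2-DM genes lay below the chains in every library but well above 1 FPKM. *H2-DMb1* was at 64.6, 80.5 and 60.4 FPKM (68.5 ± 10.6), and *H2-DMa*, its heterodimer partner, at 49.9, 59.7 and 43.7 FPKM (51.1 ± 8.05). Their ratio, *H2-DMa* over *H2-DMb1*, varied between 0.723 and 0.773. The neighbouring copy *H2-DMb2* was at 1.71, 3.66 and 1.59 FPKM. As 22.3% of the 51-base windows of *H2-DMb1* also occur in another gene, chiefly *H2-DMb2*, the split between these copies is uncertain. Of the windows of *H2-DMa*, 8.39% occur in *Brd2*.

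*H2-Oa*, the alpha chain of the H2-DM inhibitor, stood apart from the H2-DM genes. It was at 1.41, 0.809 and 0.0989 FPKM. The value in S52 corresponds to an estimated 3.11 fragments, against 50.0 in S38 and 29.3 in S44. The ratio of S52 to S38 in estimated fragments relative to depth was 0.0675, with an exact 95% interval of 0.0135 to 0.209 that covers counting error alone. Set against *H2-DMa*, *H2-Oa* was 0.0283, 0.0136 and 0.00226. *H2-Ob*, the beta chain of H2-O, was at 3.57, 3.28 and 1.60 FPKM. A share of 15.3% of the *H2-Oa* windows is shared with the overlapping row *BC051537*, and the libraries do not mark strand.

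*Ciita* was detected at a low level, with 6.35, 11.4 and 4.19 FPKM (7.31 ± 3.71). It was the most variable of the 7 members at 1 FPKM or above, with a coefficient of variation of 50.7%. Its highest library was S44, as for the chains, *Cd74* and the H2-DM genes, whereas *H2-Oa* and *H2-Ob* were highest in S38. Per *H2-Aa* it made 0.0144, 0.0191 and 0.0101.

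The costimulatory ligands were low. *Cd86* was at 1.24, 0.290 and 0.173 FPKM, which is an estimated 111, 26.8 and 13.995 fragments. *Cd80* was at 0.665 FPKM and 0.133 FPKM in S38 and S44 and was listed at 0 in S52. Both were highest in S38, the library with the most *Ptprc*. In S52, 3 fragments of *Cd80* would have given between 0.0292 FPKM and 0.152 FPKM, depending on the transcript, so a level under this could not be seen. Neither gene reached a mean of 1 FPKM. The part of leukocyte RNA in the values of these ligands and of *H2-Oa* was not tested.

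**Figure D1:**
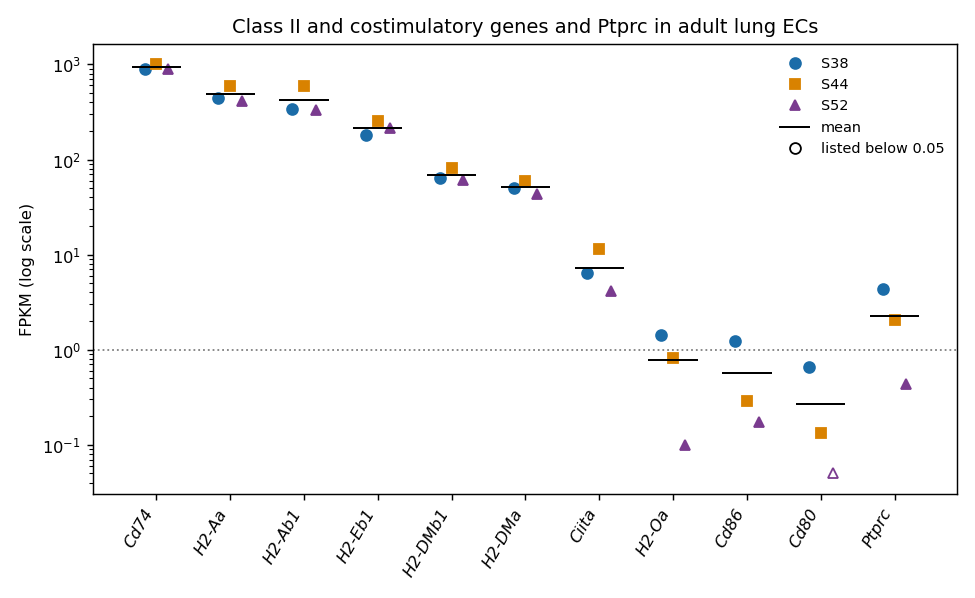
FPKM on a log axis of the 10 members and *Ptprc* in libraries S38, S44 and S52, with 1 point per library, a bar at the mean and a dotted line at 1 FPKM; open markers at the lower edge are values under 0.05 FPKM, *Cd80* in S52 being listed at 0. The 7 members from *Cd74* to *Ciita* lie above 4 FPKM in every library. *Ptprc* and 8 of the 10 members have their lowest value in S52, all but *Cd74* and *H2-Eb1*.

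By mean level the order was *Cd74*, *H2-Aa*, *H2-Ab1*, *H2-Eb1*, *H2-DMb1*, *H2-DMa*, *Ciita*, *H2-Oa*, *Cd86* and *Cd80*. The ranges of *H2-Aa* and *H2-Ab1* over the libraries overlapped, although *H2-Aa* was higher in 3 of 3 libraries. *H2-Oa* and *Cd86* overlapped and changed order between libraries. *Cd86* and *Cd80* overlapped too, although *Cd86* was higher in 3 of 3. The other neighbours did not overlap, *H2-DMb1* and *H2-DMa* being the closest, with 60.4 FPKM as the lowest value of the former and 59.7 FPKM as the highest of the latter.

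The members at 1 FPKM or above did not share the low value of *Ptprc* in S52. Of these 7 genes, 0 were in S52 under 1/2 of their value in both S38 and S44. The same held for 946 of 11770 genes at this level, or 8.04%, so a count of 0 among 7 is near the background. The mean that sets this level includes S52, so a gene low in S52 can be left out by that value. Without S52, 8 members reached a mean of 1 FPKM, the added one being *H2-Oa*. The ratio of S52 to S38 was 1.002 for *Cd74*, 1.17 for *H2-Eb1*, 0.971 for *H2-Ab1*, 0.938 for *H2-Aa* and 0.875 for *H2-DMa*. It was 0.660 for *Ciita* and 0.101 for *Ptprc*, while its median over all genes at 1 FPKM or above was 0.936. Against S44 alone, *Ciita* in S52 was at 0.367 and *H2-Ab1* at 0.558.

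S52 was the lowest library for 8 of the 10 members, among them the 3 with a mean between 0.1 and 1 FPKM. *H2-Oa* and *Cd80* were under 1/2 in S52 against both other libraries, which makes 2 of 3 genes. At this low level the share over all 3375 genes was 38.8%. *Cd86* in S52 was at 0.140 of S38 (exact 95% interval 0.0741 to 0.245 for counting error) but at 0.595 of S44. The highest library exceeded the lowest more than 2-fold in 3 of 3 of these members, where 84.8% of the genes of this level did so. Among the 7 higher members, *Ciita* alone spanned more than 2-fold, against 20.1% of the genes of its level.

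S44 was the highest library for 7 of 7 members at 1 FPKM or above, compared with 28.9% of all such genes. These genes are not independent of each other, and the count rests on the scale of the FPKM columns. After each column was rescaled to the same sum, the count was 3 of 7, against 4.05% of all such genes. That scaling moved the median log2 ratio of S44 to S38 over all genes to -0.51. With columns set to the same median of the 10 endothelial markers the count was 6 of 7, against 14.6%. Rescaled by median ratios, it was 7 of 7, against 27.1%. Of the endothelial markers themselves, 6 of 10 were highest in S44 on the deposited scale.

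**Figure D2:**
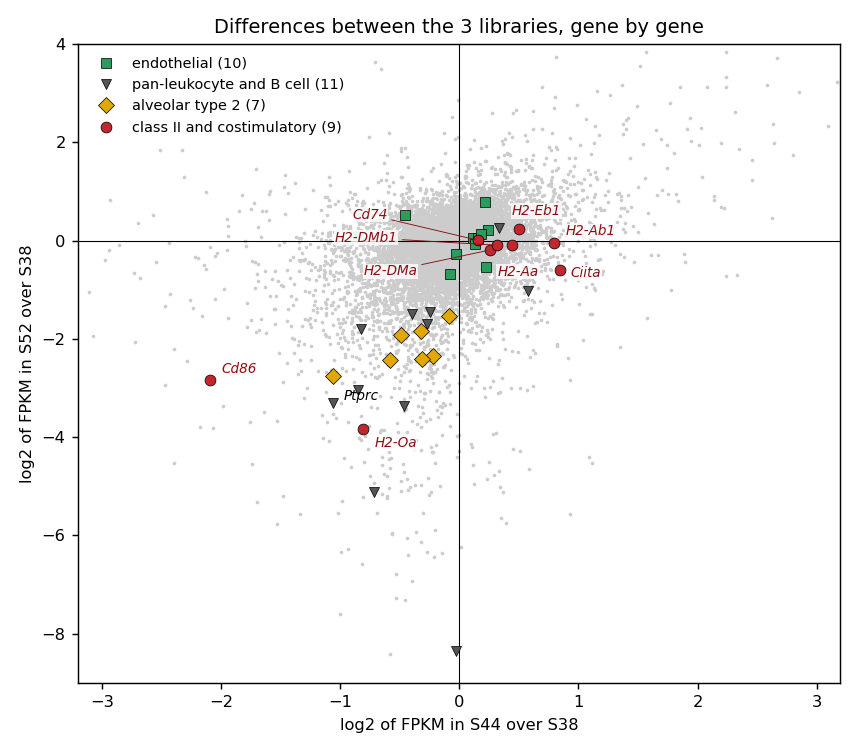
Log2 ratio of FPKM in S44 over S38 (x axis) and in S52 over S38 (y axis). Grey points are the 11574 genes at a mean of 1 FPKM or above and above 0 in every library. Of these, 30 lie outside the axes. Marked are 9 members, 10 endothelial, 11 leukocyte and B cell and 7 alveolar type 2 genes. *H2-Oa* and *Cd86* have means under 1 FPKM, so the grey points hold no genes of their level. *Cd74*, the 3 chains and the H2-DM genes lie near 0 on the y axis with the endothelial genes, and *H2-Oa* and *Cd86* lie at -2 or below, with *Ptprc*.

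Per unit of *Ptprc* the class II chains therefore differed widely between libraries. The sum of the 3 chains was 966, 1450.2 and 959 FPKM (1125 ± 282, SD, n = 3). Divided by *Ptprc* it was 225, 704 and 2212, which is 9.85 times higher in S52 than in S38. *Cd74* per *Ptprc* was 208, 485 and 2067, and *H2-DMb1* per *Ptprc* was 15.02, 39.1 and 139. *Ciita* per *Ptprc* was 1.48, 5.54 and 9.66. *Ptprc* in S52 is itself a small value, and with a pseudocount of 1 FPKM on both sides the fold of the chains was 3.67.

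The low members lay below *Ptprc* on the same scale. *H2-Oa* per *Ptprc* was 0.329, 0.393 and 0.228, and *Cd86* per *Ptprc* was 0.288, 0.141 and 0.398. *Cd80* per *Ptprc* was 0.155 and 0.0646 in S38 and S44. The *H2-Oa* ratio in S52 rests on an estimated 3.11 fragments, and *Cd80* was listed at 0 there.

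**Figure D3:**
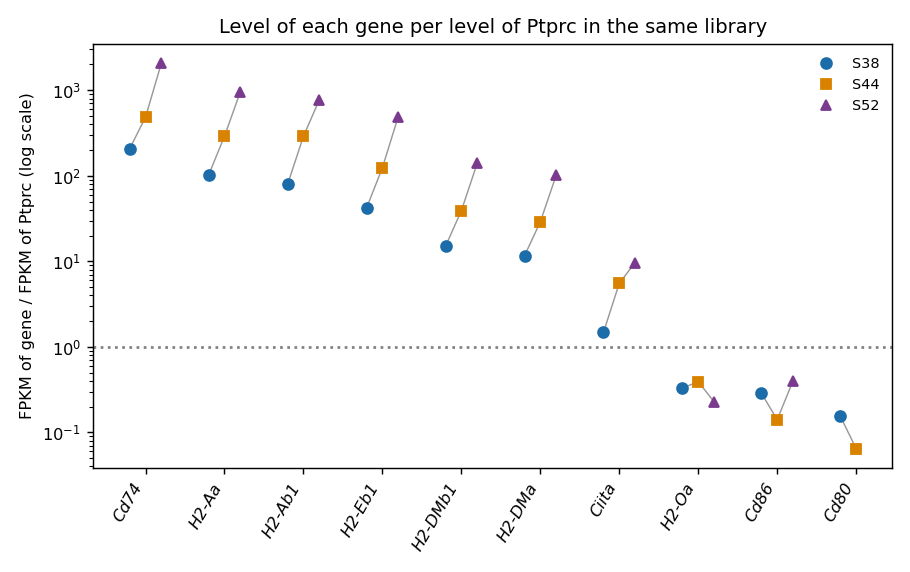
FPKM of each member divided by *Ptprc* FPKM in the same library, on a log axis, with 1 point per library, lines joining the points of a gene and a dotted line at 1; *Cd80* has no point for S52, where it is listed at 0. *Cd74*, the chains, the H2-DM genes and *Ciita* are highest in S52, with 9.94 times the S38 ratio for *Cd74* and 6.54 times for *Ciita*, whereas the *H2-Oa* ratio is 0.693 times and the *Cd86* ratio 1.38 times that of S38.

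Whole marker lists were compared with the chains in the same way. The 8 pan-leukocyte genes summed to 172, 165 and 58.2 FPKM, and 7 of 8 were under 1/2 in S52. The exception was *Lcp1*, an actin bundling protein, at 39.2, 49.5 and 46.7 FPKM. *Tyrobp*, a defining signalling adaptor of myeloid cells, was at 17.8 FPKM and 18.8 FPKM in S38 and S44 and listed at 0 in S52. Chains per pan-leukocyte sum were 5.63, 8.81 and 16.5, or 2.93 times higher in S52 than in S38. Without *Lcp1*, which made 46.7 of the 58.2 FPKM in S52, the leukocyte sum was 132, 115 and 11.5 FPKM. Chains per that sum were 7.29, 12.6 and 83.6, or 11.5 times higher in S52 than in S38. Alveolar type 2 cells can also carry class II, and chains per alveolar type 2 sum were 0.249, 0.445 and 1.23. Chains per endothelial sum were 0.161, 0.221 and 0.173, a narrower range than per *Ptprc*, per either leukocyte sum or per alveolar type 2 sum. The chains were not divided by the dendritic cell, lung capillary or lymphatic sums given below, so this range does not single out the endothelial list.

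B cells and dendritic cells express class II constitutively, and their markers were examined separately. The 5 B cell genes summed to 22.5, 16.3 and 7.10 FPKM, with *Cd79a*, part of the B cell receptor, at 8.70, 7.32 and 3.17 FPKM. *Pax5*, the B cell identity factor, was listed at 0 in S52. The 7 dendritic cell genes summed to 50.2, 54.1 and 48.1 FPKM. This flat sum was carried by the lectin receptor *Clec9a*, at 25.4, 22.4 and 20.9 FPKM, and by the factor *Zbtb46*, at 20.2, 26.6 and 26.2 FPKM. *Itgax*, which encodes CD11c, was at 0.857, 0.483 and 0 FPKM in the same order, and *Flt3* was at 0 or near it in 3 of 3 libraries. *Ccr7* was at 3.07, 3.64 and 0.582 FPKM and *Cd209a* at 0.218, 0.619 and 0 FPKM. *Xcr1* differed less, at 0.459, 0.381 and 0.356 FPKM. Whether the RNA of *Clec9a* and *Zbtb46* came from dendritic cells was not tested. *Lyz2*, of macrophages and alveolar type 2 cells, was at 1047, 779.8 and 166 FPKM, within a macrophage and monocyte sum of 1073, 816 and 185 FPKM. Airway markers summed to 2767, 2303 and 401 FPKM and platelet markers to 1692, 1345 and 37.96 FPKM. Lung capillary markers summed to 2506, 2797 and 2620.1 FPKM, and lymphatic markers to 575, 634 and 414 FPKM. Most of the lymphatic sum was *Lyve1*, at 539, 597 and 390 FPKM. *Flt4* was at 23.7, 23.8 and 19.8 FPKM and *Prox1* at 0.132, 0.173 and 0.598 FPKM, so the sum does not measure lymphatic RNA.

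**Figure D4:**
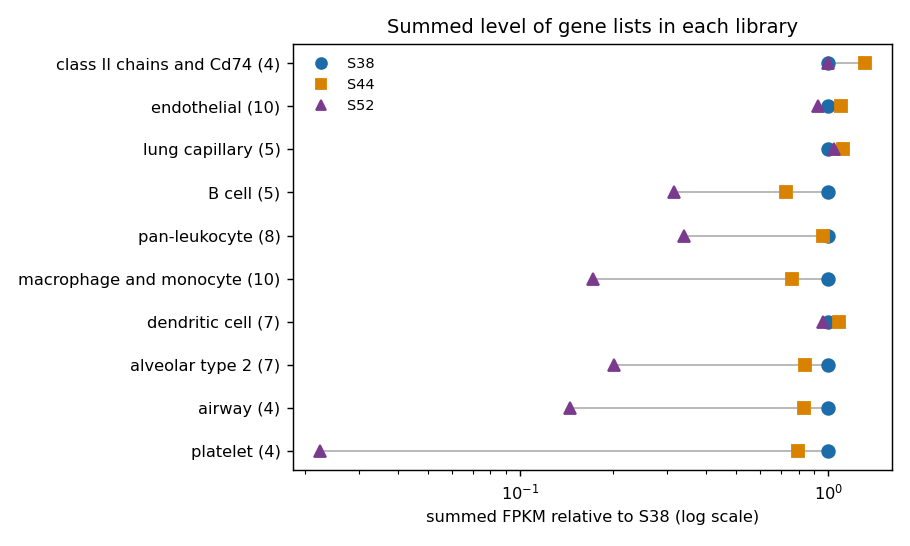
Summed FPKM of *Cd74* with the 3 class II chains, and of the marker lists, relative to the sum in S38, on a log axis, 1 point per library; the number of genes is in parentheses. The class II sum and the endothelial, capillary and dendritic cell sums lie near 1 in S52. The pan-leukocyte, B cell, macrophage, alveolar type 2, airway and platelet sums lie below 0.5 there. The dendritic cell sum is carried by *Clec9a* and *Zbtb46*, and the macrophage sum by *Lyz2*, which alveolar type 2 cells also express.

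The factors that act with *Ciita* on class II promoters were present in every library. All 7 of the listed RFX, CREB and NF-Y genes were at 1 FPKM or above, and they summed to 82.1, 86.7 and 85.8 FPKM. *Rfx5*, which binds the X box, was at 2.81, 3.76 and 3.56 FPKM. *Nfya*, which binds the Y box, was at 27.5, 30.6 and 33.2 FPKM. The ratio of S52 to S38 lay between 0.752 and 1.26 over the 7 genes. That of S44 to S38 lay between 0.649 and 1.34, and that of S52 to S44 between 0.625 and 1.25.

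Genes of the interferon gamma route, which acts on *Ciita*, were likewise all at 1 FPKM or above, and 0 of 7 were under 1/2 in S52 against both other libraries. The receptor chains *Ifngr1*, at 75.1, 67.6 and 49.9 FPKM, and *Ifngr2*, at 35.4, 29.9 and 28.3 FPKM, were lowest in S52. *Irf1*, a direct target, was at 404, 636 and 877 FPKM, with its highest value in S52 where *Ciita* was lowest.

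Of the 6 endosomal proteases and reductases on the list, 5 were in S52 at 1/2 or more of their value in another library. *Ctsl*, which cuts the invariant chain in thymic epithelium, was at 179, 189 and 189 FPKM, and *Ctsd* was at 503, 523 and 406 FPKM. *Ctss*, which does so in B cells and dendritic cells, was at 20.7, 14.4 and 1.57 FPKM, a ratio of S52 to S38 of 0.0759. *March1*, a ubiquitin ligase for class II and CD86, was at 0.361, 0.142 and 0.0932 FPKM. Its relative *March8* was at 17.6, 16.1 and 16.3 FPKM. *Cd83*, which counters March1, was at 5.795, 2.93 and 0.773 FPKM.

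Several other ligands and receptors for T cells were higher than *Cd80* and *Cd86*. *Cd40*, the receptor for CD40 ligand, was at 18.3, 24.1 and 20.4 FPKM. *Icosl*, the ligand of ICOS, was at 4.88, 5.65 and 3.12 FPKM, and *Tnfsf9*, the ligand of 4-1BB, at 5.12, 4.603 and 5.54 FPKM. *Icam1*, which binds LFA-1, was at 453, 568 and 554 FPKM. These were the 4 of 9 further costimulatory genes at 1 FPKM or above, and *Tnfsf4* and *Cd70* were listed at 0 in 3 of 3 libraries.

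Of the 7 coinhibitory genes, 4 were at 1 FPKM or above. *Cd274*, which encodes PD-L1, was at 25.2, 42.2 and 26.6 FPKM, with S44 highest as for the chains. *Lgals9*, galectin 9, was at 221, 229.6 and 240.3 FPKM. *Vsir*, which encodes VISTA, was at 43.0, 50.6 and 33.9 FPKM. *Tnfrsf14*, a ligand of BTLA, was at 6.9997, 12.7 and 3.08 FPKM and was the 1 of 4 under 1/2 in S52. *Pdcd1lg2*, which encodes PD-L2, was below 0.2 FPKM in every library.

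**Figure D5:**
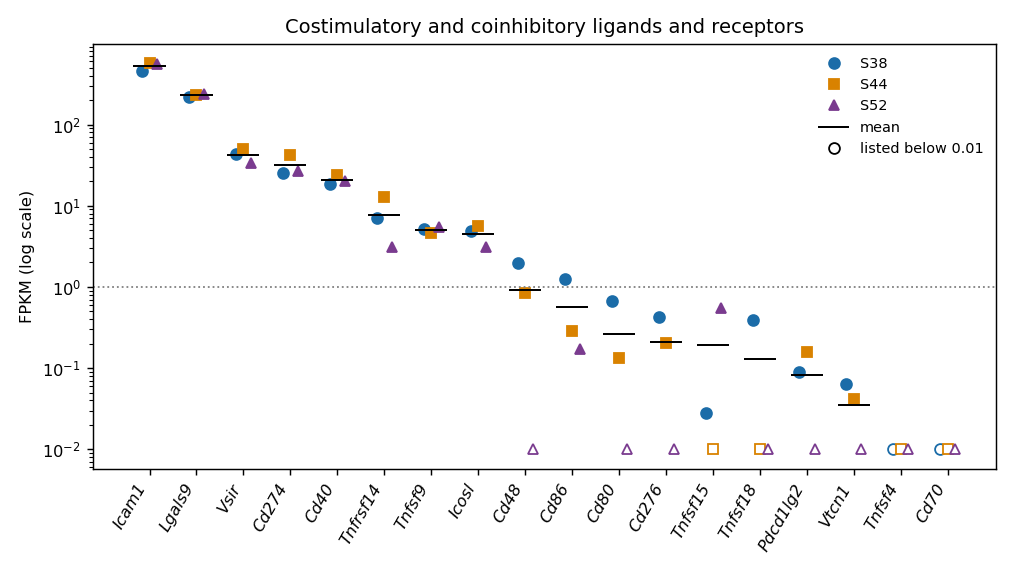
FPKM of the costimulatory and coinhibitory genes in S38, S44 and S52 on a log axis, with 1 point per library, a bar at the mean and a dotted line at 1 FPKM; open markers at the lower edge are values under 0.01 FPKM. *Cd40*, *Cd274* and *Icam1* lie above *Cd86* and *Cd80* in every library.

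Relative to *Cd86*, *Cd274* was 20.4 times higher in S38, 146 times in S44 and 154 times in S52, and *Cd40* was 14.8, 83.1 and 118 times higher. Of the listed T cell genes, *Lag3* alone reached a mean of 1 FPKM. *Cd4* was at 0.493, 0.523 and 0.310 FPKM, and *Cd28* was at 0.550, 0.332 and 0 FPKM. *Lag3*, whose product binds class II, was at 1.995, 5.10 and 2.83 FPKM, while *Cd3e* was at 0.206, 0.261 and 0 FPKM.

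The mean profile of *H2-Aa*, *H2-Ab1*, *H2-Eb1* and *Cd74* over the 3 libraries was compared with those of 6265 other genes at 10 FPKM or above. Likeness was the Euclidean distance of log2(FPKM + 1) centred on the mean of each gene. The 5 nearest genes were *Adar*, *Cd93*, *Ndufc2*, *Tomm22* and *Klf9*, at distances of 0.0321 to 0.0448. *Cd93*, a surface protein of endothelium, was at 268, 371 and 282 FPKM. *H2-DMb1* was at a distance of 0.116 and *H2-DMa* at 0.176 from the class II profile, against 1.28 and 1.21 from that of *Ptprc*. *H2-Oa* was nearer to *Ptprc*, at 0.530, than to the class II profile, at 0.858, and so was *Cd86*, at 0.780 and 0.933. *Cd80*, with every value under 1 FPKM, was at 0.754 from the class II profile and at 0.859 from *Ptprc*. The added 1 FPKM flattens so low a profile, so this order does not show which of them *Cd80* resembled. Like *Ptprc*, *Cd80* fell from S38 to S44 and from S44 to S52. *Ciita* was at 0.581 from the class II profile and at 1.20 from *Ptprc*. With 3 points per gene many profiles are alike by arithmetic, so these distances describe the libraries and carry no test.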

How the data were processed

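The 3 libraries were poly-A selected, not stranded and sequenced from both ends. The deposited values are FPKM for each gene symbol, made by the authors on mm10. The submitters' processing notes name bcl2fastq 2.17, FastQC 0.11.5, Trimmomatic 0.36, TopHat2 2.1.0 and Cufflinks 2.2.1, while the study's methods describe STAR and HTSeq counts for its own tests. The annotation behind the FPKM values is not given in the sources used here.

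The column sums of S38, S44 and S52 were 1153890, 1603596 and 1419351 FPKM, and the columns were read as deposited, with 0 value columns left out. FPKM values are not counts, so no count model was used, and with 1 group no test was run. A gene was called present at a mean of at least 1 FPKM. The calls compared S52 with both other libraries at 2-fold, and profiles used log2(FPKM + 1), which understates changes of low genes. Depth was estimated from the step between low values of 7077 genes with 1 basic GENCODE M21 transcript, and 79.0%, 77.3% and 75.5% of the low values in S38, S44 and S52 then lay within 0.15 of a whole fragment. The method was picked with the values in view. Fragment counts and limits rest on it and cover counting error only. The code for the S52 call was tested on simulated data of 6269 genes at 10 FPKM or above with 4-fold changes, which checks the code and not its power for smaller changes or lower genes. Promoters are from RefSeq on GRCm38.p6 and gene positions from GENCODE M21 on GRCm38. Python 3.11.15, pandas 2.3.3 and numpy 2.4.6 were used.

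The members, the 114 other listed genes and the marker lists were chosen with earlier results of these data known. Genes named are the members, those lists and the 5 genes nearest to the class II profile. Alternatives were other thresholds, pseudocounts, scalings and lists, and leaving out each library.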

Additional observations from a re-analysis of the deposited data

How the results depend on the processing

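No paired analysis was possible because the libraries form 1 group. Of the alternative values computed, 26 stayed within a fixed fold of the main value, or within the SD for the summed chains, and 9 moved. A count could thus change without being called moved. The members present were 10 at a threshold of 0.1 FPKM and 6 at 10 FPKM, against 7 at 1 FPKM. With each column rescaled to a sum of 1000000, the mean of the summed chains was 806 FPKM. On that scale 3 of 7 members were highest in S44, against 4.05% of genes at 1 FPKM or above. The scalings of the S44 count, and the comparison of S52 with S44 alone, were chosen after seeing the data. Members under 1/2 in S52 numbered 2 of 10 with no filter (*H2-Oa* and *Cd80*), where 16.5% of all genes were. Against S44 alone they numbered 1 of 7 (*Ciita*), where 10.3% of the genes at 1 FPKM or above were. The S52 to S38 fold of chains per *Ptprc* was 3.67 with a pseudocount of 1 and 2.93 with the pan-leukocyte sum, of which *Lcp1* makes most in S52. Without *Lcp1*, an alternative chosen after seeing the data, it was 11.5. Leaving out each library in turn, the fold of chains per *Ptprc* between the libraries that remained ranged from 3.14 to 9.85. It was 3.14 without S38 or without S52, and without S44 it was the main value itself. The members present numbered 7 to 8, and the summed chains ranged from 962 to 1208 FPKM. Of the 5 nearest profiles, 0 were shared when genes down to 1 FPKM were admitted and 4 with a pseudocount of 0.1. Values near 3 fragments, as for *H2-Oa* in S52, are limited by depth.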
